A study of Mus musculus with 4 samples.

Results

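The EGFR pathway genes examined here are the ligands *Areg*, *Hbegf*, *Ereg*, *Tgfa*, *Epgn* and *Btc*, the receptors *Egfr*, *Erbb2* and *Erbb3*, and the feedback inhibitor *Errfi1*. They make 10 of the 32285 genes counted by single-cell RNA sequencing of Dalton's lymphoma ascites (DLA) tumors, and they were chosen by name with earlier results of these data, their levels among them, already known. Their unique molecular identifiers (UMIs, each standing for 1 captured transcript) were read in 4404 cells that passed quality limits, 3211 of them tumour cells selected on the keratins *Krt8* and *Krt18* (5 UMIs or more in sum) and 746 of them immune cells selected on lineage markers (2 keratin UMIs or fewer). DLA cells had been injected into the peritoneum of Swiss albino mice, and tumor tissue was digested to single cells. There were 2 control libraries, whose labels say untreated, and 2 libraries from tumors treated with SP11, an inhibitor of the chaperone HSP90, given by mouth at 30 mg/kg for 17 days. Nothing in the labels gives the mouse behind a library, the sex or age of the animals, or whether libraries pool animals, so p-values measure the spread between libraries. DLA is a transplanted cell line grown in every mouse, and no library of untransplanted tissue was analysed.

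Ligands of the EGFR family are made as membrane-anchored precursors, and shedding by metalloproteases such as ADAM17 frees them to act on the same cell or its neighbours. Ligand binding pairs EGFR with itself or with ERBB2 or ERBB3, which starts the Ras-ERK and PI3K cascades, and ERK in turn raises transcription of several of the ligands. Errfi1 (also called Mig6) is induced downstream of the receptor and blocks its kinase domain, and it thereby closes a negative feedback loop. The receptors are transmembrane proteins that depend on chaperones for folding, with ERBB2 a well-known HSP90 client, but only RNA was measured here.

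The kept cells held 9574906 to 13024964 UMIs per library. Tumour cells numbered 845 and 528 in the control libraries and 1256 and 582 in the SP11 libraries, with a median of 10935, 17214, 8891.5 and 19843 UMIs per cell. The label lymphoma was not borne out by lineage markers in these cells. The 13 lymphoid markers together reached 1.90 to 63.5 UMIs per 1000000 (CPM) per library, highest in the SP11 libraries, against 1792 to 2810 CPM for 13 epithelial markers that were not used in the selection. Of the epithelial markers, *Epcam* stood at 194 to 227 CPM and *Krt7* at 1113 to 1799 CPM, while *Cldn3*, *Cldn7* and *Perp* were at 0 in all 4 libraries. They are therefore called keratin-positive tumour cells or tumour cells. Some tumour cells also passed an immune gate, 22 and 18 in the control libraries and 139 and 79 in the SP11 libraries, and their part in the results was not tested beyond the values given without them. Between 60 and 359 cell barcodes were shared by any pair of libraries, and profiles under the same barcode correlated at 0.377 to 0.786, against 0.388 to 0.780 for other barcodes of the same pairs.

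By the GENCODE annotation of mm10, *Epgn*, *Ereg*, *Areg* and *Btc* lie within 376 kb on chromosome 5 (91027464 to 91402994), and no other protein-coding gene lies between them. *Areg* (ENSMUSG00000029378, chr5:91139599-91148432, plus strand) had 5112 UMIs in tumour cells of all libraries, *Ereg* 324, *Btc* 15 and *Epgn* 1. Neighbouring ligand genes thus ranged from 1 to 5112 UMIs in the same cells. *Hbegf* (ENSMUSG00000024486) lies on chromosome 18 (36504927 to 36515805) and had 5586 UMIs, and *Errfi1* (ENSMUSG00000028967, chr4:150853919-150868892, plus strand) had 7428. *Ereg*, *Tgfa*, *Egfr*, *Erbb2* and *Errfi1* overlap an annotated gene on the opposite strand, and how reads were assigned to strands is not given in the sources used here.

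Promoters of *Areg* and *Errfi1* are shown because the RNAs of these genes were abundant in tumour cells. They were also chosen because both RNAs were a smaller share of UMIs in G2M-called cells, as described further on. RefSeq entries (GRCm38.p6) give the 250 bases before each transcription start. Capitals mark the cAMP response element TGACGTCA, its 5-letter arm TGACG and the TATA motif TATAAA, all read on both strands, and TGACGTCA holds the arm once on each strand.

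Areg (chr5:91139349-91139598, plus strand): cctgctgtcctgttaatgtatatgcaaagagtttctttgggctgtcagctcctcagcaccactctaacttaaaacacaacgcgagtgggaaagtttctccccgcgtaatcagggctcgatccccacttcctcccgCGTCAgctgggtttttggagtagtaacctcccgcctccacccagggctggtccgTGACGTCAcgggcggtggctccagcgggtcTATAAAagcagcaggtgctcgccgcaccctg

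Errfi1 (chr4:150854820-150855069, plus strand): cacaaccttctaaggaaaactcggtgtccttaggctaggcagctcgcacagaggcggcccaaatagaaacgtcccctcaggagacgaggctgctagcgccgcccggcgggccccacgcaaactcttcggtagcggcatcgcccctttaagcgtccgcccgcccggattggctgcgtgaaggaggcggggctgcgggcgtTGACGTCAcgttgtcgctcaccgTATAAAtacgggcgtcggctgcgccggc

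TGACGTCA began 61 bases before the start in *Areg* and 51 bases before it in *Errfi1*, and TATAAA began 31 and 28 bases before it. Of 32851 promoter windows of this length, 1.55% held TGACGTCA and 12.4% held TATAAA. Among the members with an entry, which leaves out *Ereg*, *Erbb3* and *Hbegf*, no other window held TGACGTCA. The *Errfi1* window precedes a start inside the annotated gene span, and the window of a more upstream listed start held none of the motifs. Neither the AP-1 motif TGANTCA, found in 6.75% of all windows, nor the heat-shock element (GAA, TTC and GAA in this order with 2 bases between neighbours), found in 0.466%, occurred in a member's window. These matches describe letters in the window and not binding.

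Among the ligands, nearly all UMIs came from 2 genes. *Areg* (amphiregulin) was at 125 and 115 CPM in the control libraries and at 106 and 125 CPM in the SP11 libraries. *Hbegf* (heparin-binding EGF-like growth factor, which also serves as the diphtheria toxin receptor) was at 128 and 117 CPM in controls and at 140 and 126 CPM after SP11. For both genes the libraries of the 2 groups overlapped, and these ligands together made 96.5% to 97.2% of the UMIs of the 6 ligands in each library.

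*Ereg* (epiregulin) was at 8.09 and 8.12 CPM in controls and at 6.92 CPM in each SP11 library, lower in both SP11 libraries but on only 77 to 85 UMIs each. *Btc* (betacellulin) had 4 and 1 UMIs in controls and 8 and 2 after SP11. *Tgfa*, the classical autocrine ligand of carcinomas, had 0, 1, 2 and 3 UMIs in control 1, control 2, SP11 1 and SP11 2, and *Epgn* (epigen) had 1 UMI, in control 2. At this depth a count of 0 allows up to 0.355% of the tumour cells of control 1 to hold a UMI. These 3 ligands were therefore near the limit of detection.

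All 3 receptor RNAs were detected at low levels. *Egfr*, the receptor of all 6 ligands, was at 7.15 and 8.34 CPM in controls and at 8.22 and 10.9 CPM after SP11. SP11 2 was the highest library, and the groups overlapped. *Erbb2*, which binds no known ligand and acts as a partner of the other receptors, was at 2.90 and 2.74 CPM in controls and at 3.34 and 3.46 CPM after SP11, so that both SP11 libraries were the higher ones, on 26 to 42 UMIs each.

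*Erbb3*, whose own kinase is weak and which binds neuregulins, was at 4.77 and 2.85 CPM in controls and at 3.91 and 4.62 CPM after SP11. The controls spanned both SP11 libraries. *Errfi1* was at 176 and 153 CPM in controls and at 170 and 181 CPM after SP11, so the feedback inhibitor too had overlapping groups. Counts come from the 3′ ends of transcripts and are not scaled to length, so levels of different genes are not ranked.

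**Figure D1:**
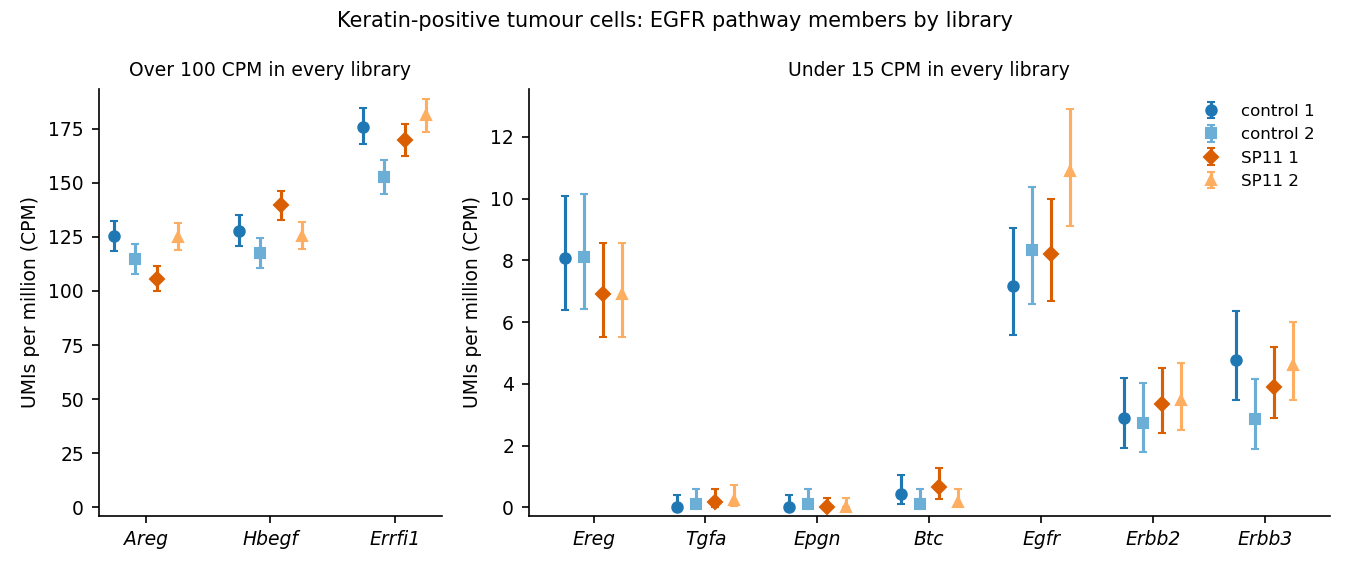
Level of each member in keratin-positive tumour cells, in UMIs per 1000000 (CPM), with *Areg*, *Hbegf* and *Errfi1* at left and the other 7 members at right on another scale. Each point is 1 library (blue, control; orange, SP11) and bars are 95% Poisson intervals, which cover counting error only. The left panel runs from 106 to 181 CPM with no separation of the groups, and *Tgfa*, *Epgn* and *Btc* stay under 1 CPM.

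The comparison of SP11 with control asked whether treatment changed the pathway's RNA in tumour cells. No member passed the test. UMIs were summed per library and tested in edgeR with Benjamini-Hochberg adjustment over 11588 genes, of which 1.81% were called higher and 0.501% lower. Of the 10 members 7 passed the filter on low counts and 0 were called, with 0 at an unadjusted p under 0.05. DESeq2 called 0 of them as well.

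Log2 fold changes with 95% intervals were -0.19 (-0.45 to 0.07) for *Areg*, with means of 120 ± 7.38 CPM in controls and 115 ± 13.8 CPM after SP11 (SD, n = 2 libraries each). For *Hbegf* the log2 change was -0.01 (-0.29 to 0.27), with means of 123 ± 7.42 and 133 ± 9.85 CPM. For *Errfi1* it was -0.03 (-0.30 to 0.24), with means of 164 ± 16.6 and 175 ± 8.09 CPM. The edgeR changes use library totals rescaled by TMM, while CPM are not rescaled. For *Hbegf* and *Errfi1* the log2 change is therefore below 0 although the mean CPM is higher after SP11. On the edgeR scale these intervals leave room for falls to 0.732, 0.818 and 0.810 of the control level and for rises to 1.05, 1.20 and 1.18 times it.

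The less abundant members had wider intervals. *Ereg* had a log2 change of -0.35 (-0.76 to 0.05; edgeR adjusted p = 0.405), the lowest p of the 7. *Egfr* stood at 0.17 (-0.23 to 0.57), *Erbb2* at 0.14 (-0.47 to 0.75) and *Erbb3* at 0.03 (-0.57 to 0.63). The median over the 7 members was -0.01, and over all genes tested it was -0.00.

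Few genes of the wider pathway passed the test. Over 7 lists of ErbB partners, sheddases, cascade kinases, PI3K branch genes, receptor sorting genes, ERK feedback inhibitors and ERK output genes, 67 of 75 genes were tested, 1 was called higher and 0 lower. The median over the lists was 0.12. The 7 ligand shedding genes tested had a median of 0.32, with all 7 values above 0 and 0 called, from 0.13 for *Rhbdf2* to 0.93 for *Rhbdf1* (edgeR adjusted p = 0.115). These genes share the same libraries and were not tested as a set, so their common direction is no result about the list. The gene called was *Sh3kbp1*, which encodes an adaptor of CBL-mediated receptor internalization. It was at 0.518 and 0.211 CPM in controls and 3.09 and 1.48 CPM after SP11 (log2 change 2.49 ± 0.59, SE; edgeR adjusted p = 0.0326). *Sh3kbp1* passed the filter on low counts only through the SP11 libraries, and so could only come out higher. The count of called genes is therefore not read as a result about the lists. B cell markers were also higher, at a summed 0.726 and 1.37 CPM in control and 47.4 and 25.4 CPM in SP11 tumour cells. Markers of other lineages rose as well, erythroid ones from 267 and 178 to 10605 and 4735 CPM. Neutrophil markers went from 36.9 and 47.3 to 149 and 168 CPM, and T markers from 1.55 and 0.211 to 8.46 and 4.37 CPM. The source of the *Sh3kbp1* UMIs was not tested. Without tumour cells past an immune gate *Sh3kbp1* did not pass the filter. Its call also ended in DESeq2 (adjusted p = 0.150), without called doublets (adjusted p = 0.135), and without control replicate 1, control replicate 2 or SP11 replicate 1 (adjusted p = 0.0922, 0.308 and 0.245).

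Ligand and inhibitor RNA was spread over many tumour cells rather than held by a few. Libraries differed in UMIs per cell, so each tumour cell was thinned to 5000 UMIs and shallower cells were left out, which kept 799, 511, 1151 and 575 cells. *Areg* was then found in 45.2% and 39.3% of control cells and in 39.6% and 45.6% of SP11 cells. *Hbegf* was found in 44.7% and 38.4% of control cells and in 47.2% and 43.1% of SP11 cells. *Errfi1* was found in 54.3% and 49.5% of control cells and in 54.0% and 57.7% of SP11 cells. SP11 minus control differences of the mean share were 0.33, 3.63 and 3.98 percentage points, each with p = 0.667 in a two-sided exact permutation test of the 4 libraries, which cannot give less than 0.33.

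Without thinning the shares followed depth, at 57.2% to 83.0% for *Areg* and 72.5% to 92.1% for *Errfi1*. In the thinned cells 64.6% to 69.1% held a UMI of some ligand, 7.01% to 9.04% a UMI of some receptor, and 4.50% to 6.09% both. Between 14.4% and 20.9% held no UMI of *Areg*, *Hbegf* or *Errfi1*.

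Counts of these 3 genes varied from cell to cell somewhat more than random sampling of equal cells would give. The variance was 1.21 to 1.58 times the mean for *Areg*, 1.16 to 1.36 times for *Hbegf* and 1.25 to 1.39 times for *Errfi1*, where equal cells would give 1. The highest count in a thinned cell was 8.

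Measured correlations of ligands and inhibitor within cells were small. *Areg* and *Hbegf* were found together in 22.0%, 15.5%, 19.1% and 23.0% of the cells of control 1, control 2, SP11 1 and SP11 2, against 20.2%, 15.1%, 18.7% and 19.7% from the product of their shares. Their correlation within a library was 0.02 to 0.12, that of *Areg* with *Errfi1* 0.00 to 0.06, and that of *Hbegf* with *Errfi1* 0.02 to 0.06. Cells of a library share its depth and preparation, and correlations this small in sparse counts describe these cells only.

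In immune cells the ligands were scarce. Monocyte-macrophage gated cells numbered 27 and 15 in controls and 117 and 106 after SP11. *Areg* had 0, 1, 5 and 8 UMIs there (0, 25.1, 33.9 and 31.5 CPM), with point values below the tumour cells of the same library in all 4. In control 2 the 95% Poisson interval of 0.635 to 140 CPM held the tumour level. *Hbegf* had 3, 2, 3 and 6 UMIs (60.2, 50.2, 20.4 and 23.6 CPM), again with point values below the tumour cells in all 4, but with control intervals of 12.4 to 176 and 6.07 to 181 CPM that held the tumour level. Together 8 of 265 monocyte-macrophage cells held *Areg* (3.02%) and 12 held *Hbegf* (4.53%).

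*Errfi1* had 9, 5, 10 and 24 UMIs in monocyte-macrophage cells, which is 181, 125, 67.9 and 94.4 CPM. Control 1 lay at the tumour level of its library (176 CPM), control 2 had a 95% Poisson interval of 40.7 to 293 CPM that held the tumour level, and both SP11 libraries lay below theirs. *Ereg* had 4 UMIs, in 2 cells of SP11 2.

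Droplets carry free RNA, so each count was set beside what the UMIs of epithelial markers in the same cells would bring at the tumour ratio. For monocyte-macrophage cells of all libraries that expectation was 5.17 UMIs of *Areg* against 14 counted, 5.65 of *Hbegf* against 14, and 7.52 of *Errfi1* against 48. For *Errfi1* the count was thus well above it, in 35 of 265 cells (13.2%).

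In B gated cells, 156 and 151 of them in the SP11 libraries and 1 in the controls, the counts were 2 of *Areg* against 3.89 expected, 6 of *Hbegf* against 4.25 and 11 of *Errfi1* against 5.66. The *Areg* count lay under the expectation and the *Hbegf* count somewhat above it. Whether these few UMIs are background was not tested. Their median depth was 873 and 1590 UMIs in SP11 1 and SP11 2, against 8891.5 and 19843 in tumour cells, and shares of cells with a UMI were 0.649% for *Areg* and 3.57% for *Errfi1*. T gated cells (103) had 2 UMIs of *Areg*, 1 of *Hbegf* and 5 of *Errfi1*.

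Neutrophil gated cells (55) had 3 UMIs of *Areg*, all in 1 cell of SP11 2, 0 of *Hbegf* and 6 of *Errfi1* in 5 cells. Erythroid barcodes (81), which should lack these genes, had 0 UMIs of *Areg*, 2 of *Hbegf* and 4 of *Errfi1*. Dendritic gated cells (15) had 1 UMI of *Egfr* and 1 of *Errfi1*. Receptor counts over all 746 immune cells were 3 UMIs of *Egfr* (2.72 CPM, 95% Poisson interval 0.561 to 7.95), 4 of *Erbb3* (3.63 CPM, 0.988 to 9.29) and 0 of *Erbb2* (up to 2.72 CPM at 3 counts). The 1102862 UMIs of these cells are too few to tell the levels of *Erbb2* and *Erbb3* from those of tumour cells.

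**Figure D2:**
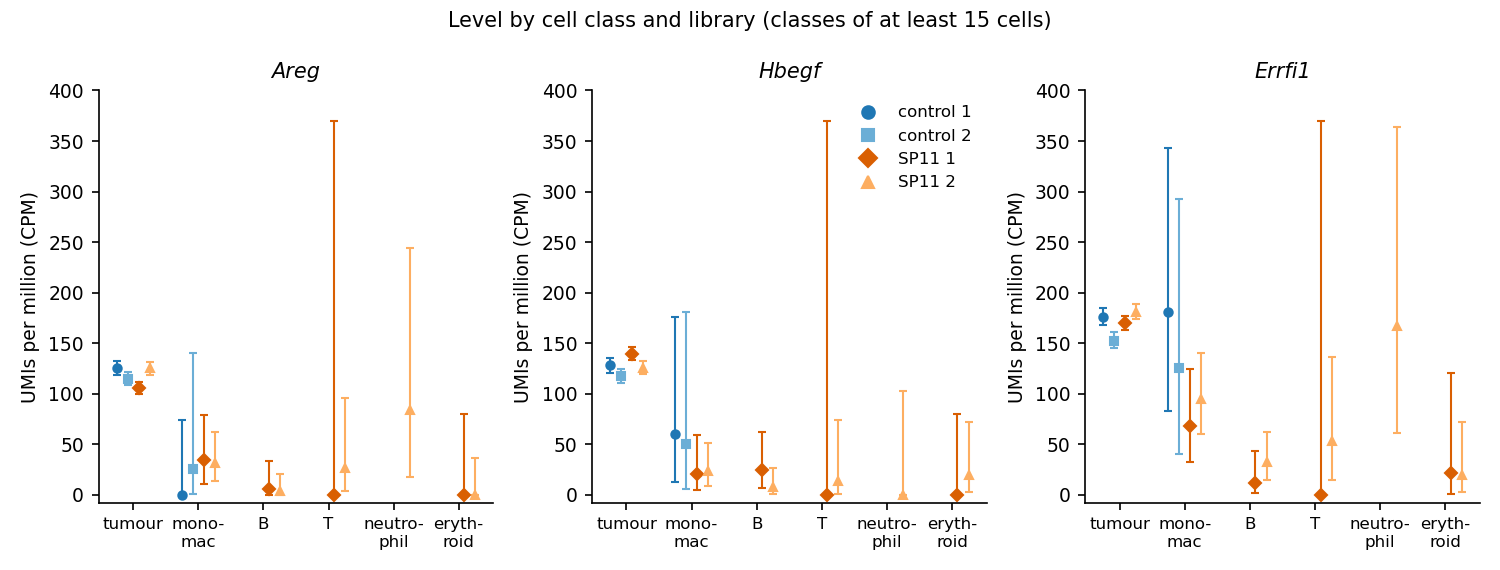
Level of *Areg*, *Hbegf* and *Errfi1* by cell class and library, in UMIs per 1000000 (CPM), for classes with at least 15 cells in the library; bars are 95% Poisson intervals of counting error. Tumour cells hold narrow intervals between 106 and 181 CPM. Monocyte-macrophage cells reach the tumour level for *Errfi1* in control 1 and have point values below it for both ligands in every library, although the intervals of *Hbegf* in both controls and of *Areg* in control 2 hold the tumour level.

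The same question of treatment was asked in monocyte-macrophage cells, the immune class with the most cells in each control library. Of the 10 members only *Errfi1* passed the filter there, and it was not called (log2 change -0.77, 95% interval -1.80 to 0.25; edgeR adjusted p = 0.332), where 10.1% of 1447 genes were called in either direction. Of all 1447 genes, 90 were called higher and 56 lower. The pathway lists had 12 genes tested in this class, 4 called higher and 0 lower, with a median of 0.74. These 4, named after their values were seen, were the ERK output genes *Egr1*, *Fos* and *Ier3*, which are immediate early transcripts, and *Adam15*, a metalloprotease. *Adam15* passed the filter only through the SP11 libraries, where it had 28 and 43 UMIs, and so could only come out higher. The list counts and median are therefore not read as a result about the lists. *Ier3* kept its call in 2 of 10 alternatives (edgeR adjusted p up to 0.254) and *Adam15*, on 3 and 0 control UMIs, in 4 of 6 (adjusted p up to 0.265).

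*Egr1* was at 120 and 376 CPM in the control monocyte-macrophage cells and at 814 and 920 CPM after SP11. *Fos* was at 702 and 752 CPM in controls and at 1344 and 1078 CPM after SP11. Both were higher in each SP11 library, but *Fos* lost its call without any 1 library (edgeR adjusted p = 0.150 to 0.203), while *Egr1* was called in 8 of 10 alternatives (adjusted p up to 0.230). Control 2 held 15 cells in this class, and over all genes the count of calls fell from 146 to 4 without SP11 replicate 2. Whether the SP11 difference itself differed between tumour and monocyte-macrophage cells was tested as an interaction over 11316 genes, of which 0.680% were called. The difference of log2 changes, tumour minus monocyte-macrophage, was 0.50 (-0.50 to 1.50) for *Errfi1*, 0.91 (-0.79 to 2.62) for *Hbegf* and -2.07 (-4.55 to 0.41) for *Areg*. None of these was called, and *Areg* rests on 1 UMI in the control monocyte-macrophage cells. Of 69 pathway genes tested, 0 were higher and 3 lower, with *Egr1* at -2.71 ± 0.34 (SE; edgeR adjusted p = 9.53e-13) and called in all 6 alternatives. The median of all genes in this interaction was -0.46 in edgeR and 0.12 in DESeq2.

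Cells on either side of the keratin limit had lower point values of *Areg* than other tumour cells, on 27 UMIs inside the limit and 13 outside it. In the 85 tumour cells just inside it, with 5 to 7 keratin UMIs, *Areg* was at 66.9 CPM, *Hbegf* at 124 CPM and *Errfi1* at 183 CPM. In the 64 cells just outside, with 3 or 4 keratin UMIs, the levels were 72.2, 94.4 and 139 CPM, and in the 3126 tumour cells with 8 or more they were 118, 128 and 170 CPM. Of the 85 cells just inside, 58 came from SP11 1, the library with the lowest *Areg* level in tumour cells (106 CPM). These values describe the limit and carry no test.

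The 3 abundant members differed between cell cycle phases as a share of UMIs. Phases were called in tumour cells from the summed expression of S and G2M gene sets, none of them a member, and gave 953 cells as G1, 750 as S and 1508 as G2M, with 46.4% to 48.7% of each library in G2M. The phase is a cut through 2 continuous scores, and 926 tumour cells (28.8%) lay within 0.05 of a cut. G2M cells carried 1.30 to 1.45 times as many UMIs per cell as G1 cells of the same library, and S cells 1.15 to 1.39 times as many, so levels in CPM and per cell are both given.

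*Areg* was at 153, 136, 128 and 171 CPM in the G1 cells of control 1, control 2, SP11 1 and SP11 2. In S cells it was at 113, 121, 95.5 and 120 CPM and in G2M cells at 117, 104, 99.2 and 108 CPM. G1 was the highest phase in all 4 libraries. Per cell the libraries differed, with 1.45, 1.86, 1.02 and 3.01 UMIs in G1, 1.32, 2.31, 0.936 and 2.44 in S, and 1.47, 2.06, 1.09 and 2.47 in G2M.

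*Hbegf* was at 154, 159, 153 and 165 CPM in G1 cells and at 158, 147, 174 and 151 CPM in S cells. In G2M cells it was at 102, 87.5, 119 and 95.1 CPM, under both other phases in all 4 libraries. Its UMIs per cell were 1.46, 2.18, 1.22 and 2.92 in G1, 1.84, 2.80, 1.70 and 3.06 in S, and 1.27, 1.74, 1.30 and 2.19 in G2M. S was thus the highest phase per cell in every library.

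*Errfi1* was at 185, 161, 181 and 211 CPM in G1 cells and at 211, 174, 193 and 201 CPM in S cells. In G2M cells it was at 156, 139, 154 and 158 CPM, again under both other phases in all 4 libraries. Per cell it had 1.76, 2.21, 1.45 and 3.73 UMIs in G1, 2.47, 3.32, 1.89 and 4.07 in S, and 1.94, 2.78, 1.70 and 3.63 in G2M.

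Phases were compared in edgeR with the library as a block over 9637 genes. In G2M against G1, 11.4% of genes were called higher and 13% lower, and of 7 members tested 0 were higher and 3 lower. *Hbegf* fell by 0.70 on the log2 scale (SE 0.06; edgeR adjusted p = 3e-16), *Areg* by 0.52 (SE 0.05; adjusted p = 3.72e-12) and *Errfi1* by 0.35 (SE 0.05; adjusted p = 8.27e-09), each lower in 4 of 4 libraries. All 3 calls held in each of the 12 alternatives, with log2 changes of -0.80 to -0.63, -0.58 to -0.45 and -0.51 to -0.30.

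Per cell the ratios lay nearer to 1. The G2M to G1 ratio of UMIs per cell, as a mean over libraries, was 0.995 for *Areg* (range 0.821 to 1.11), 0.864 for *Hbegf* (0.750 to 1.07) and 1.12 for *Errfi1* (0.974 to 1.26). In exact sign-flip permutation tests over the 4 libraries p was 1, 0.25 and 0.25, where 0.125 is the smallest possible. The same exact test on the CPM ratios gave p = 0.125 for each of these genes. These genes were thus a smaller share of a larger UMI total in G2M cells, and UMIs per cell also vary with capture, which cannot be told apart here from RNA content. The summed epithelial markers fell as a share too. They were at 2954, 1921, 2540 and 2456 CPM in the G1 cells of control 1, control 2, SP11 1 and SP11 2. In G2M cells they were at 2640, 1703, 2280 and 2049 CPM. Whether the fall of the members goes beyond such a general fall was not tested.

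In S against G1, 8.58% of genes were called higher and 7.62% lower, and of the 7 members 0 were higher and 1 lower. *Areg* fell by 0.44 on the log2 scale (SE 0.06; edgeR adjusted p = 4.73e-08), and it stayed called in all 12 alternatives. *Hbegf* stood at -0.05 (95% interval -0.17 to 0.07) and *Errfi1* at 0.02 (-0.08 to 0.12). The S to G1 log2 ratio of *Areg* minus that of *Errfi1* was -0.46 ± 0.15 (SD, n = 4 libraries) and minus that of *Hbegf* -0.38 ± 0.24, below 0 in 4 of 4 libraries, with p = 0.125 in each exact permutation test, the smallest that 4 libraries allow.

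A comparison of G2M with S was added after these results were seen. It had 6.73% of genes called higher and 7.29% lower, and of the 7 members 1 was higher and 2 lower. *Hbegf* fell by 0.65 (SE 0.06; edgeR adjusted p = 8.72e-15) and *Errfi1* by 0.36 (SE 0.05; adjusted p = 2.29e-09), while *Areg* stood at -0.08 (95% interval -0.19 to 0.03). As a share of UMIs, the step that passed the test was thus G1 to S for *Areg* and S to G2M for *Hbegf* and *Errfi1*. Whether the genes differ from each other in the step from S to G2M was not tested. Per cell the S to G1 ratio of *Areg* had a mean over libraries of 0.955 (range 0.809 to 1.24). Its exact sign-flip permutation test gave p = 0.75.

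**Figure D3:**
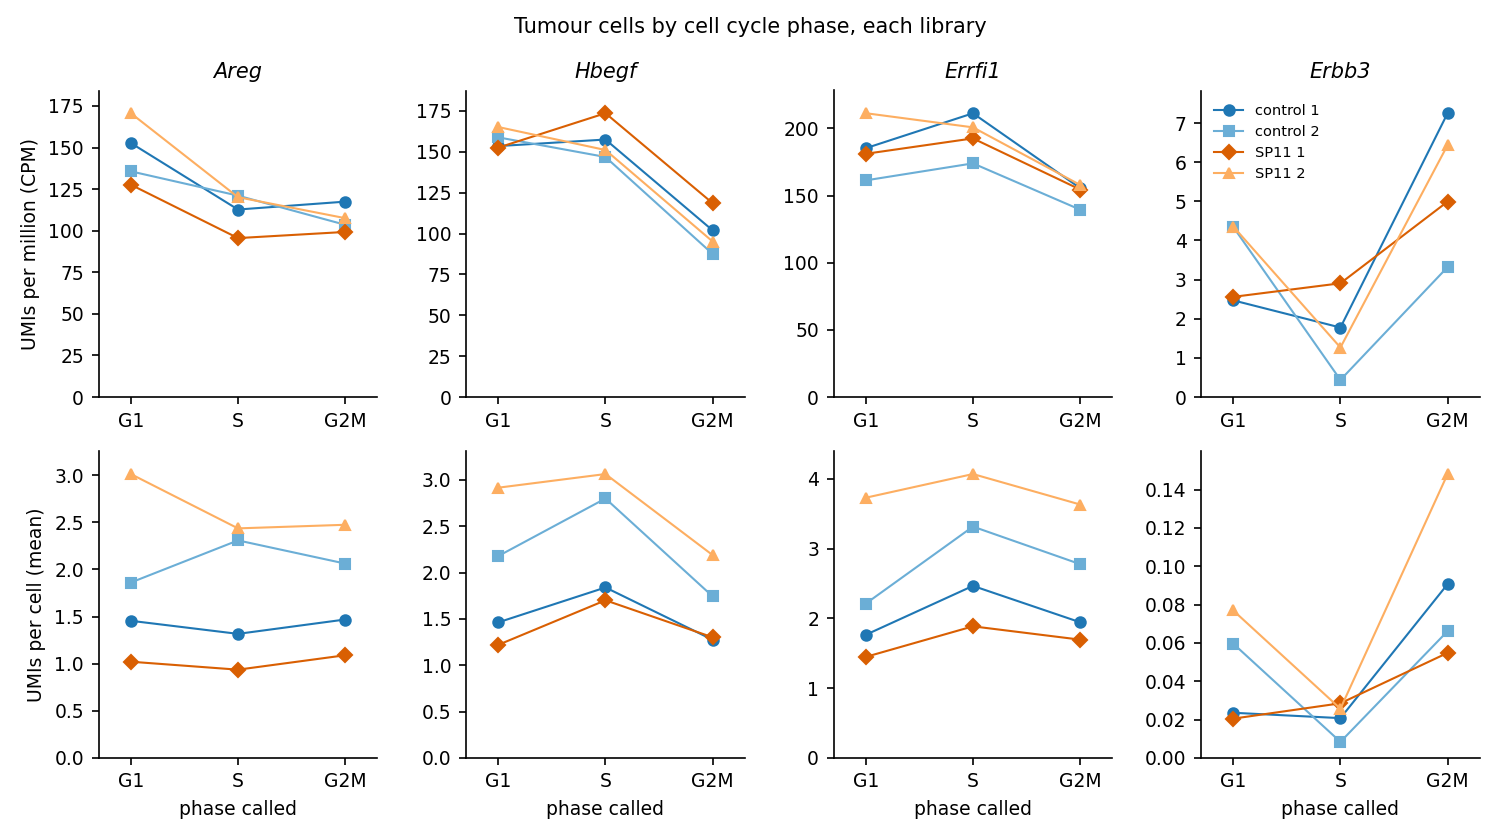
*Areg*, *Hbegf*, *Errfi1* and *Erbb3* in tumour cells called G1, S and G2M, as UMIs per 1000000 (upper row) and mean UMIs per cell (lower row), with 1 line for each library. In the upper row G2M lies under G1 for the ligands and *Errfi1* in all 4 libraries, and in the lower row S lies over G1 for *Hbegf* and *Errfi1*.

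Receptors had too few UMIs for firm statements by phase. The only receptor call, for *Erbb3*, came from the comparison of G2M with S added after results were seen, and it rests on few S-phase UMIs. *Erbb3* had 4, 1, 8 and 4 UMIs in the S cells of the 4 libraries (1.77, 0.437, 2.91 and 1.26 CPM) and 36, 17, 32 and 40 UMIs in the G2M cells (7.25, 3.32, 4.99 and 6.44 CPM). G2M was higher than S in all 4 libraries, also per cell. The log2 change of G2M against S was 1.74 ± 0.34 (SE; edgeR adjusted p = 0.000113), and all 11 alternatives with an adjusted p called it, with changes of 1.50 to 2.25, while DESeq2 gave no adjusted p. Against G1 neither phase was called, at 0.65 for G2M (edgeR adjusted p = 0.095) and -1.09 for S (adjusted p = 0.0784).

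*Egfr* had a log2 change of -0.24 (-0.60 to 0.13) in G2M and of -0.48 (-0.92 to -0.04) in S against G1, neither called (edgeR adjusted p = 0.391 and 0.135). *Erbb2* stood at 0.34 (-0.33 to 1.01) and 0.62 (-0.13 to 1.36). *Ereg* stood at 0.00 (-0.39 to 0.39) and -0.28 (-0.76 to 0.19). None of these 3 genes passed the test in either phase. *Tgfa*, *Epgn* and *Btc* did not pass the filter.

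**Figure D4:**
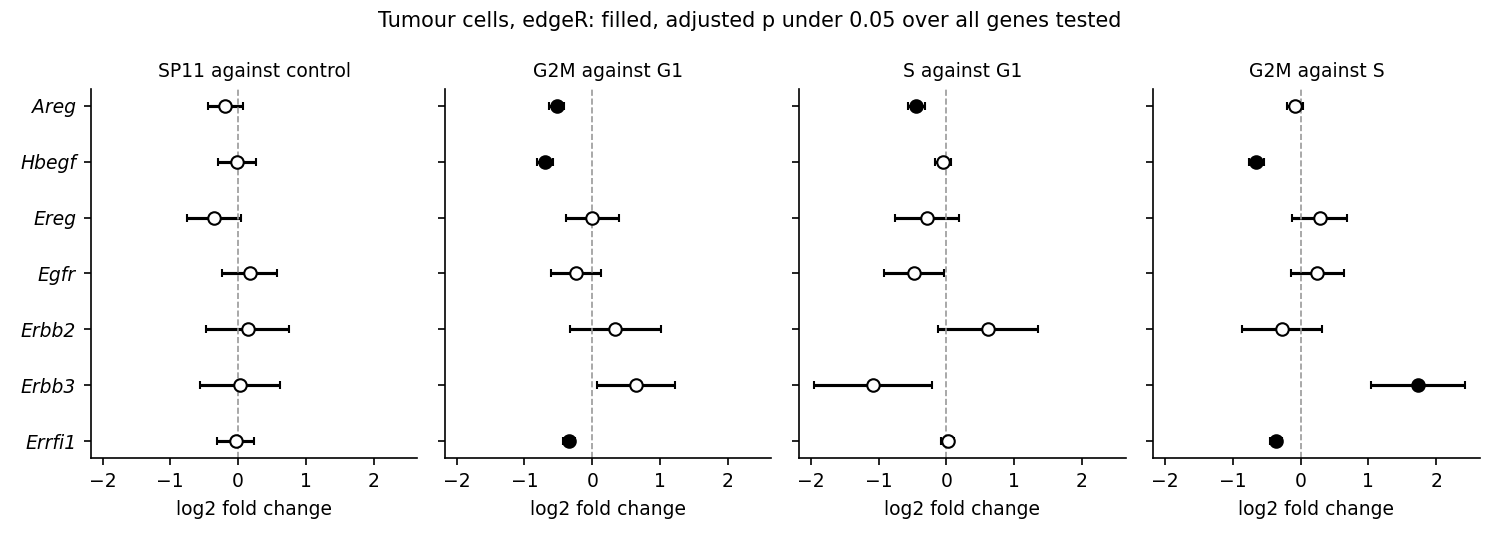
Log2 fold changes with 95% intervals of the 7 members tested in tumour cells, for SP11 against control, G2M against G1, S against G1 and G2M against S. Filled points have an edgeR adjusted p under 0.05 over all genes tested. No point is filled in the treatment panel, and *Areg*, *Hbegf*, *Errfi1* and *Erbb3* are filled in at least 1 phase panel.

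Whether the phase difference depended on treatment was tested as an interaction over 10047 genes, of which 0.0498% were called. No member was called. The G2M against G1 change in SP11 minus that in control was -0.12 (-0.34 to 0.10) for *Areg*, 0.16 (-0.07 to 0.38) for *Hbegf* and -0.08 (-0.27 to 0.10) for *Errfi1*. The phase pattern of these genes was therefore not shown to differ between control and SP11 tumours.

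Of 65 pathway genes tested on the 7 lists, 9 were higher and 8 lower in G2M than in G1. These counts are near the shares over all genes (11.4% and 13%) and are no result about the lists, with a median of -0.01 beside -0.01 over all genes tested. Among the 11 ERK output genes 2 were higher and 5 lower. *Plaur*, the urokinase receptor, fell by 0.35 (SE 0.06; edgeR adjusted p = 1.42e-06), from a mean over libraries of 116 CPM in G1 to 95.3 CPM in G2M. *Phlda1*, a pleckstrin-domain gene, fell by 0.34 (SE 0.05; adjusted p = 1.45e-06), from 136 to 113 CPM. *Ier3* fell by 0.24 (SE 0.06), while *Etv5*, a PEA3-family transcription factor, was higher by 0.84 (SE 0.22). *Plaur* and *Phlda1* were called in 12 of 12 alternatives, and *Ier3* and *Etv5* in 10 of 12 (edgeR adjusted p up to 0.298 and 0.0908).

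Of the 9 ERK feedback inhibitors tested, 1 was higher and 2 lower. The ERK phosphatase gene *Dusp5* fell by 0.78 (SE 0.20), from a mean of 9.03 CPM in G1 to 5.43 CPM in G2M, and *Dusp7* fell by 0.40 (SE 0.12), while *Spred2* was higher by 0.27 (SE 0.10). Of 10 receptor degradation genes, 2 were higher and 1 lower. *Lrig1*, which promotes receptor degradation, fell by 0.61 (SE 0.15), and *Hgs*, an endosomal sorting gene, and *Cbl*, the ubiquitin ligase of EGFR, were higher by 0.42 (SE 0.13) and 0.30 (SE 0.11). *Dusp5* and *Lrig1* kept their calls in 12 of 12 alternatives. The others lost theirs in some, with *Dusp7* called in 9 of 12 (edgeR adjusted p up to 0.123), *Hgs* in 8 (up to 0.174), *Spred2* in 5 (up to 0.255) and *Cbl* in 3 (up to 0.288).

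In the cascade, 2 of 16 genes were higher and 0 lower. The adaptor gene *Shc1* was higher by 0.33 (SE 0.12). Of 10 PI3K branch genes 2 were higher, *Pik3ca*, the catalytic subunit, by 0.57 (SE 0.14) and *Gsk3b* by 0.21 (SE 0.08). *Pik3ca* was called in 12 of 12 alternatives, *Gsk3b* in 7 (edgeR adjusted p up to 0.352) and *Shc1* in 5 (up to 0.373). None of 7 shedding genes and none of 2 other ErbB genes tested was called in G2M against G1, where 1 and 0 had an unadjusted p under 0.05.

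Genes whose counts ran most closely with the members over tumour cells were named by the mean of the within-library correlation among 4428 other genes with at least 1000 UMIs. For *Hbegf* they were *Cnfn* (0.19, range 0.13 to 0.29 over 4 libraries), *Plet1* (0.18), *Lama3* (0.15), *Apbb2* (0.15) and *Ung* (0.15), where the median gene had 0.02. For *Errfi1* they were *Hist1h1e* (0.18, range 0.11 to 0.22), *Hist2h2ac* (0.17), *Slc38a2* (0.17), *Emp1* (0.15) and *Hist1h1c* (0.15), where the median was 0.02. These correlations are weak, share the depth of each cell, and are given as a description.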

How the data were processed

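Single-cell RNA was measured in 4 tumor libraries with the 10x Genomics 3′ kit. The files deposited by the authors hold unnormalized UMI counts for each gene in each barcode, made with Cell Ranger 7.1.0 per the file headers, and mm10 is the build per the labels, while the study's methods name hg38. Barcodes with at least 200 genes and at most 10% mitochondrial UMIs were kept. Tumour cells had 5 or more *Krt8* and *Krt18* UMIs. Immune cells had 2 or fewer and passed 1 gate (B, T or dendritic markers, 2 UMIs; monocyte-macrophage, 3; neutrophil, 10), or the gate passed most strongly by 3 times. Doublets called by Scrublet (scanpy 1.11.5), 0.928% to 8.13% of cells, were kept and left out as an alternative.

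UMIs were summed per library, and per phase or class, and tested with edgeR 4.0.16 (TMM, filterByExpr, quasi-likelihood, Benjamini-Hochberg at 0.05 over all genes tested) in R 4.3.3, with DESeq2 1.42.0 as an alternative. The edgeR fit had been checked on simulated counts with known changes. Phases were called with Seurat 5.3.0 on lists of 43 S and 54 G2M genes, all of them matched. CPM are UMIs of a gene per 1000000 UMIs of the class. Poisson and exact Clopper-Pearson intervals (scipy 1.17.1, 95%) and the limit of 3 counts for a count of 0 cover counting error only. Cells were thinned to 5000 UMIs. The members, lists and tests were chosen with earlier results of these data known. Besides the members, up to 4 called genes of each pathway list in order of p were named for SP11 against control and G2M against G1 in tumour cells, and 5 genes each by likeness to *Hbegf* and *Errfi1*. Some genes that this rule or a marker list would name are not reported here. Alternatives changed the tool, filter, libraries, replicate block, gates, mitochondrial limit, doublets and phase calls.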

Additional observations from a re-analysis of the deposited data

Results flagged for a closer look

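Barcodes above the mitochondrial limit, which enter no comparison, held more *Errfi1* RNA than kept tumour cells of the same control library. In control 1, 49 such barcodes held 48 UMIs of *Errfi1* in 74707, which is 643 CPM (95% Poisson interval 474 to 852) and 3.65 times the 176 CPM of its tumour cells. In control 2, 28 barcodes held 43 UMIs in 70050, which is 614 CPM (444 to 827) and 4.02 times the 153 CPM of its tumour cells. In SP11 1 and SP11 2 only 13 and 12 barcodes were of this kind, with 1 and 3 UMIs (70.0 CPM, 1.77 to 390, and 120 CPM, 24.8 to 352). The same barcodes of control 1 held 4 UMIs of *Egfr*, which is 53.5 CPM (14.6 to 137) against 7.15 CPM in tumour cells. *Areg* had intervals that held its tumour level, at 80.3 CPM (29.5 to 175) in control 1 and 128 CPM (58.7 to 244) in control 2. Of these barcodes 9 of 49 and 3 of 28 had 5 or more keratin UMIs, with a median of 1235 and 2562.5 UMIs in all. The cause was not tested.

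The SP11 change of 3 ERK output genes differed between tumour and monocyte-macrophage cells in the edgeR interaction test. The tumour minus monocyte-macrophage difference of log2 changes was -2.71 for *Egr1* (called in 6 of 6 alternatives), -1.17 for *Ier3* (adjusted p = 0.0272, called in 1 of 6) and -1.06 for *Junb* (adjusted p = 0.038, called in 2 of 6). In tumour cells *Egr1* was at 137 CPM in each control library and at 108 and 109 CPM after SP11, and it was not called there (log2 change -0.47; edgeR adjusted p = 0.0525). The control monocyte-macrophage cells number 42, and the cause was not tested.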

How the results depend on the processing

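The calls of *Areg*, *Hbegf* and *Errfi1* in G2M against G1 and of *Areg* in S against G1 held in all 12 alternatives. Counts of called genes moved more. With DESeq2 they were 149 for SP11 against control in tumour cells (268 in edgeR), 57 in monocyte-macrophage cells (146), 1347 for G2M against G1 (2354), 922 for S against G1 (1561), 601 for G2M against S (1352), 1 for phase by treatment (5) and 31 for cell class by treatment (77). Without a filter on low counts the last 2 were 13 and 50. Replicate numbers share no stated animal or day, and same-numbered libraries deviated together at r = 0.16. With the replicate block the tumour count was 1038 and the monocyte-macrophage count 54, and no member's call changed. Monocyte-macrophage counts were 10 with gate limits doubled and 75 with Krt8+Krt18 of 0. With 1 library left out in turn, where a lone library is assumed to vary like the others, counts ran from 78 to 425 (tumour), 4 to 93 (monocyte-macrophage), 2 to 24 (phase by treatment) and 37 to 50 (cell class by treatment).

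Directions that turned were those of uncalled values. With 1 library left out, log2 changes with SP11 ran from -0.14 to 0.11 for *Hbegf*, -0.31 to 0.47 for *Erbb3* and -0.15 to 0.093 for *Errfi1*. In the same way G2M against G1 ran from -0.00095 to 0.025 for *Ereg*, S against G1 from -0.011 to 0.071 for *Errfi1*, and the phase by treatment values from -0.24 to 0.028 for *Areg*, -0.044 to 0.36 for *Hbegf* and -0.15 to 0.0059 for *Errfi1*. The thinned *Areg* share differed by -2.64 to 3.31 percentage points, and by -0.82 for cells with at least 2 UMIs. Without tumour cells past an immune gate the SP11 change was 0.023 for *Hbegf* and -0.056 for *Erbb3*, without doublets -0.0020 for *Erbb3*, and with Krt8+Krt18 of at least 20 -0.015 for *Erbb2*. *Ereg* in G2M against G1 was -0.0091 with DESeq2, -0.0043 without those gated cells, -0.0074 without doublets and -0.026 with phases within each library, a setting that also gave 0.013 for *Ereg* and -0.085 for *Errfi1* in S against G1 and -0.039 for *Ereg* in G2M against S. *Errfi1* in S against G1 was -0.0045 at the higher keratin limit, and *Erbb2* in G2M against G1 was -0.10 with phases called after thinning. *Erbb3* was called in G2M against G1 without control replicate 2 (log2 change 0.91, edgeR adjusted p = 0.0304) and in S against G1 without SP11 replicate 1 (-1.67, adjusted p = 0.0267). The cause of these shifts was not tested. Depth limits *Tgfa*, *Epgn* and *Btc* in tumour cells and all members in immune cells.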
